A study of Drosophila melanogaster with 8 samples.

Results

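The genes described here encode the aminoacyl-tRNA synthetases of Drosophila melanogaster, taken as every gene row whose FlyBase identifier has a current symbol that joins a 3-letter amino acid code to RS or RS-m. Of 15682 gene rows, 33 met that rule. The suffix -m, which marks enzymes of the mitochondrion, was carried by 14 of them, and the other 19 were taken as cytosolic. Cytosolic LeuRS and mitochondrial PheRS-m were not analysed here. All 33 genes passed the filter on low counts and entered the test.

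RNA was sequenced from pooled dissected eye disc tumours of larvae fed high sucrose (HSD, at 1.0 M, dissected at day 14) or a control diet (CD, at 0.15 M, dissected at day 8), with 4 libraries for each diet. Animals of both diets carried the same Ras/Src genotype. In it, eyeless-driven FLP made GFP-labelled clones by the MARCM technique, which expressed an activated form of ras1 under UAS control and were homozygous for a stop allele of csk, the kinase that restrains Src. Cells outside the clones kept a working csk and did not express the transgene, so the dissected tissue was a mosaic. Age at dissection went wholly with diet, and the effects of diet and age cannot be told apart.

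Each synthetase joins an amino acid to its own tRNA, and the charged tRNA then carries that amino acid to the ribosome. The cytosol and the mitochondrion translate separately, and many amino acids have a separate synthetase gene for each compartment, both encoded in the nucleus. In humans the genes for the glycine and lysine enzymes make both forms. No -m gene for these amino acids, nor for threonine, histidine or glutamine, was among the rows. Whether the genes taken as cytosolic for these amino acids also supply the mitochondrion was not tested, and the cytosolic group is defined by symbol alone. The enzymes fall into class I and class II, which have unrelated catalytic domains. In animals several cytosolic synthetases are held in a multisynthetase complex together with the scaffold proteins AIMP1, AIMP2 and AIMP3. In growing larval tissue the cytosolic enzymes supply protein synthesis as a whole, while the mitochondrial ones serve only the few proteins encoded by the mitochondrial genome.

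Levels are given in CPM, counts scaled to a common library size. Library totals ranged from 14109310 to 19963565 counts in HSD and from 11558860 to 17825108 counts in CD. CD replicate 1 held by far the most salivary glue transcripts, and the summed level of the markers Sgs3, Sgs5, Sgs7 and Sgs8 ran from 0.8 to 226 CPM in HSD libraries and from 2.23 to 3950 CPM in CD libraries. HSD replicate 4 held the most transcripts of the fat body genes Lsp1beta and Lsp2. Of the 5 eye disc markers, all were detected in every library. The eye selector ey stood at 123 ± 6.94 CPM in HSD and 119 ± 3.23 CPM in CD (SD, n = 4 each), whereas eya, so, dac and toy were lower in HSD by 1.31, 1.17, 1.32 and 0.71 on the log2 scale.

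Cytosolic synthetase transcripts were higher in HSD tumours as a group, and mitochondrial ones for the most part were not. By the quasi-likelihood test of edgeR, all 19 cytosolic genes were higher in HSD (adjusted p under 0.05), against 25.9% of the 9257 genes tested, and none was lower, against 26.2% of all genes. Of the 14 mitochondrial genes, 3 (21.4%) were higher in HSD and none was lower, against the same shares of all genes. At an unadjusted p under 0.05 edgeR also had 3 higher and 0 lower mitochondrial genes. The share of all genes at that unadjusted threshold was not computed, so nothing was read from that count. DESeq2 and limma-voom each called 3 higher and 0 lower mitochondrial genes. Of the 9257 genes tested, DESeq2 called 2405 higher and 2606 lower, and limma-voom called 2568 higher and 2533 lower. The log2FC (log2 fold change, HSD over CD) had a median of 0.77 (1.70-fold) in the cytosolic group, 0.11 (1.08-fold) in the mitochondrial group and 0.00 over all genes tested. When libraries were scaled to their cytosolic ribosomal protein genes, which moved the median of all genes to -0.34, the cytosolic median was 0.43 with 13 genes higher, the mitochondrial median turned to -0.24, and ArgRS and LysRS changed sign. GlnRS, GluProRS, alpha-PheRS and beta-PheRS kept their sign under that scaling but no longer passed.

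**Figure D1:**
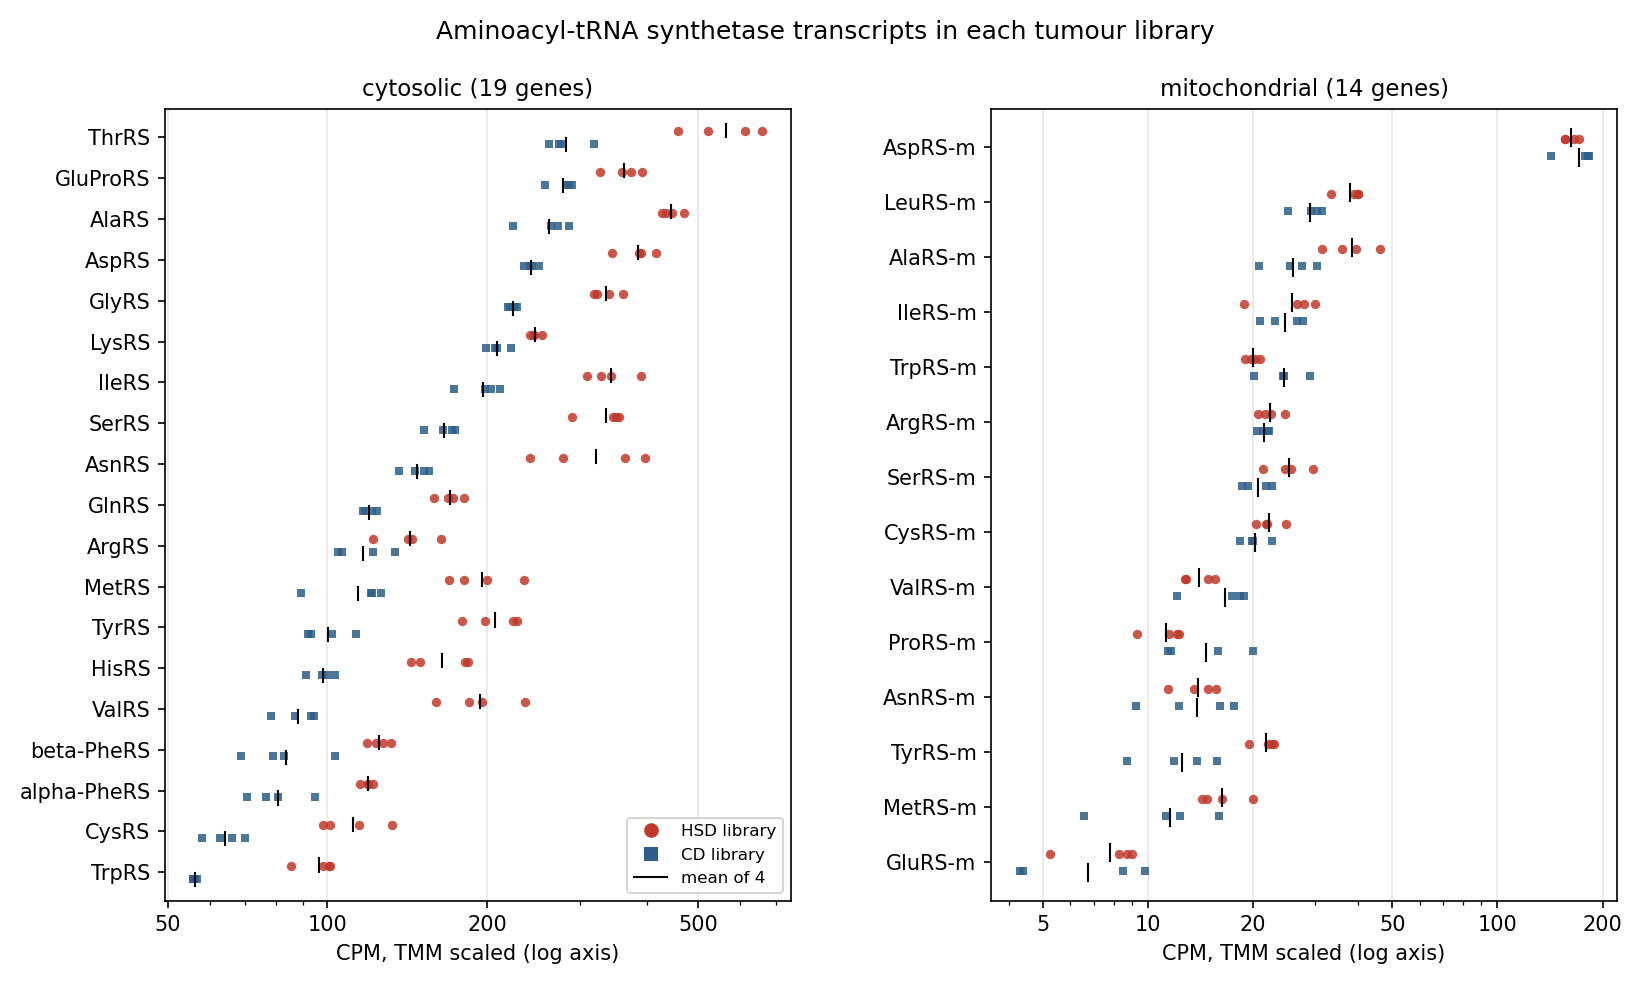
Transcript level of each synthetase gene in each library, in scaled counts (CPM) on a log axis, with HSD libraries as circles above CD libraries as squares and the mean of 4 as a bar. In 18 of 19 cytosolic genes every HSD point lies to the right of every CD point, ArgRS being the exception, and in the mitochondrial panel this holds for 3 of 14 genes.

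The separation between diets was also seen library by library. In 18 of the 19 cytosolic genes (94.7%) all 4 HSD libraries lay above all 4 CD libraries, which was the case for 24.9% of all genes tested. In the mitochondrial group it was the case for 3 of 14 genes (21.4%). Summed over the 19 cytosolic genes, transcripts stood at 4984, 5401, 4639 and 4431 CPM in HSD replicates 1 to 4, against 2893, 2946, 3012 and 2864 CPM in CD replicates 1 to 4. The sums did not overlap, and their means, 4864 ± 424 and 2929 ± 64.8 CPM (SD, n = 4 each), had a ratio of 1.66. Summed over the 14 mitochondrial genes, the values were 431, 460, 439 and 428 CPM in HSD and 379, 415, 437 and 426 CPM in CD, so that the ranges overlapped and the ratio of the means was 1.06. The sums are given as descriptions, without a test.

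The largest changes were in ValRS, AsnRS, TyrRS, SerRS and ThrRS, the 5 cytosolic genes (26.3%) that were at least 2-fold higher in HSD, a size reached by 7.14% of all genes tested. ValRS (FBgn0027079; BDGP6 2R, 13198850 to 13202709), which charges the branched-chain amino acid valine, had 195, 236, 185 and 160 CPM in HSD replicates 1 to 4, against 78.4, 86.7, 94.3 and 93.1 CPM in CD replicates 1 to 4. The lowest HSD library lay well above the highest CD library, and the log2FC was 1.14 (± 0.12 SE, edgeR adjusted p = 1.32e-05). AsnRS (FBgn0086443; 2L, 19129469 to 19131954), the enzyme for asparagine, had 365, 398, 279 and 241 CPM in HSD and 155, 146, 152 and 137 CPM in CD. Its HSD values spread more than those of any other cytosolic member, with a coefficient of variation of 22.8%, and the log2FC was 1.12 (± 0.14 SE, adjusted p = 6.66e-05).

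TyrRS (FBgn0027080; 3L, 16417349 to 16419302), for tyrosine, had 227, 224, 198 and 180 CPM in HSD and 102, 91.96, 113 and 93.2 CPM in CD, a log2FC of 1.05 (± 0.10 SE, edgeR adjusted p = 7.29e-06). SerRS (FBgn0031497; 2L, 3035493 to 3037403), for serine, had 351, 355, 345 and 290 CPM in HSD, against 152, 172, 165 and 174 CPM in CD. The HSD values of SerRS sat close together except for a lower replicate 4, and the log2FC was 1.02 (± 0.08 SE, adjusted p = 2.37e-06). ThrRS (FBgn0027081; 2L, 12103751 to 12107170), for threonine, had 613, 661, 523 and 459 CPM in HSD and 318, 276, 273 and 261 CPM in CD, a log2FC of 1.00 (± 0.11 SE, adjusted p = 2.87e-05). It had the most CPM of any cytosolic synthetase in HSD, and in CD it was level with GluProRS within their SDs, at 282 ± 24.9 and 278 ± 14.6 CPM (SD, n = 4 each).

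IleRS, CysRS and TrpRS followed, charging isoleucine, cysteine and tryptophan. IleRS had 329, 390, 309 and 343 CPM in HSD and 174, 198, 212 and 204 CPM in CD (log2FC 0.80, ± 0.09 SE). CysRS had 114.6, 132, 101 and 98.01 CPM in HSD and 66.0, 62.8, 69.7 and 58.1 CPM in CD (0.80, ± 0.11 SE). TrpRS was nearly level across CD libraries, at 56.3, 56.7, 55.9 and 55.9 CPM, while its HSD libraries held 101, 97.9, 101 and 85.2 CPM (0.78, ± 0.08 SE). The CD coefficient of variation of TrpRS, 0.670%, was the smallest of any cytosolic member, and no HSD library overlapped a CD library in any of the 3 genes.

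A middle group held MetRS (log2FC 0.78), AlaRS (0.77), HisRS (0.75), AspRS (0.67), GlyRS (0.58), beta-PheRS (0.58), alpha-PheRS (0.56) and GlnRS (0.50). The alpha and beta subunits together make the cytosolic phenylalanine enzyme, and their transcripts changed by nearly the same amount, with 119 ± 2.69 CPM for alpha-PheRS and 125 ± 5.48 CPM for beta-PheRS in HSD, against 80.6 ± 10.2 CPM and 83.5 ± 14.6 CPM in CD (SD, n = 4 each). The transcripts of the subunits were also at similar levels per kilobase of exon, at 70.03 and 63.9 CPM per kilobase in HSD and 47.5 and 42.6 CPM per kilobase in CD.

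GluProRS, ArgRS and LysRS changed least among cytosolic members. GluProRS, a single protein that charges both glutamate and proline, had a log2FC of 0.38 (± 0.07 SE, edgeR adjusted p = 0.000949). LysRS, for lysine, had 246 ± 5.46 CPM in HSD and 209 ± 9.51 CPM in CD (SD, n = 4 each), a log2FC of 0.24 (± 0.06 SE, adjusted p = 0.0058) that was not called with total counts alone (0.10) and was -0.11 when libraries were scaled to ribosomal protein genes. ArgRS, for arginine, had 142, 163, 144 and 122 CPM in HSD and 106, 105, 134 and 122 CPM in CD. Its diets overlapped, and its log2FC of 0.29 (± 0.11 SE, adjusted p = 0.0423) had adjusted p-values between 0.0111 and 0.703 over the alternatives tried. The call for ArgRS was lost under 4 other scalings, with every gene with a count included, at a threshold of 0.01, and also without any one of CD replicates 1 and 2 or HSD replicates 1, 2 and 3, with log2FC values between 0.22 and 0.38 when single libraries were left out.

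**Figure D2:**
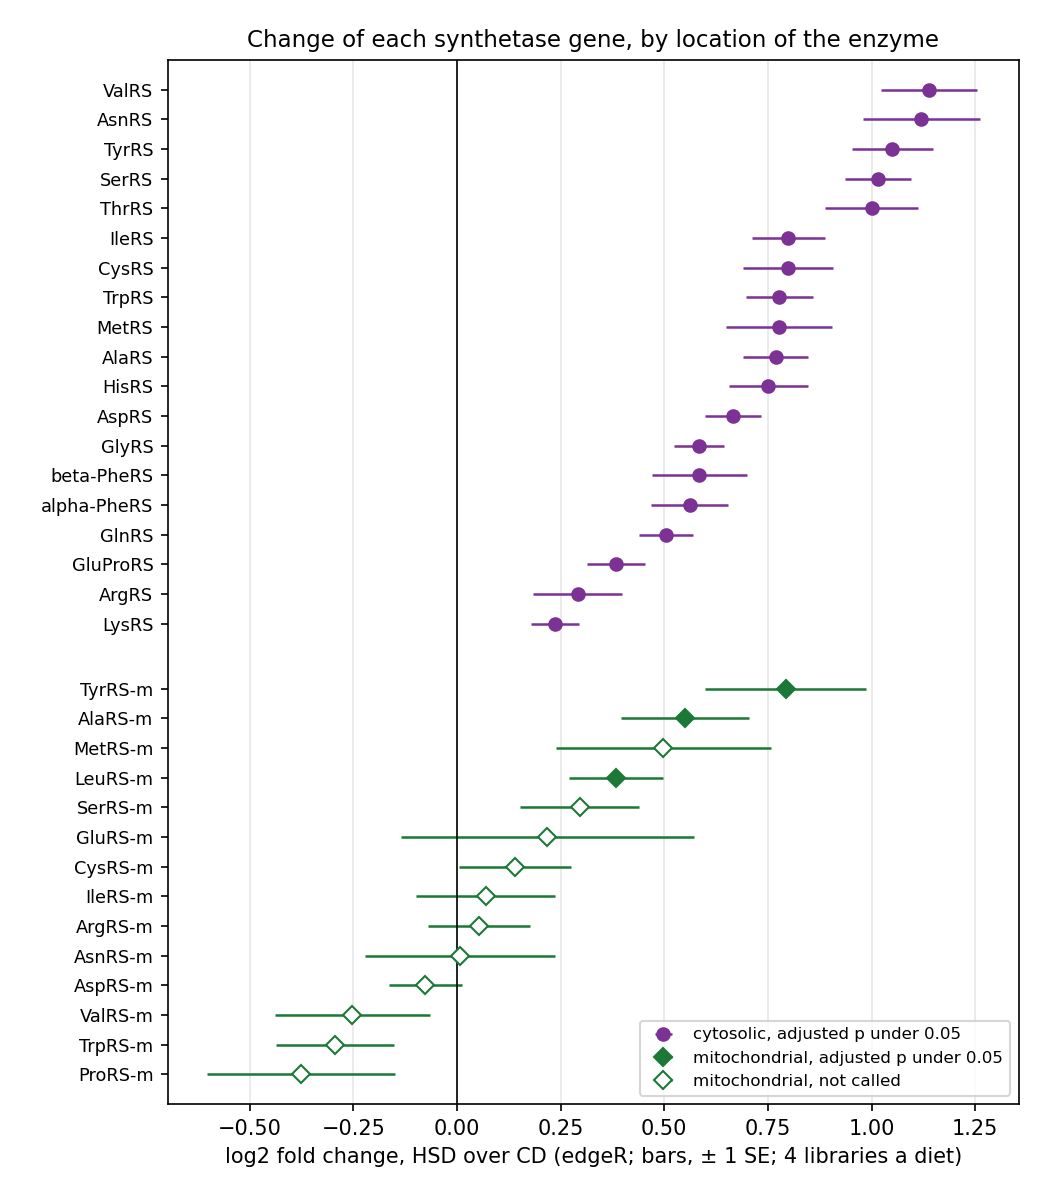
Log2FC of each synthetase gene, HSD over CD, from edgeR, with bars of 1 SE and filled symbols for an adjusted p under 0.05. Cytosolic genes run from 0.24 for LysRS to 1.14 for ValRS and mitochondrial genes from -0.38 for ProRS-m to 0.79 for TyrRS-m; when libraries were scaled to ribosomal protein genes, ArgRS and LysRS changed sign and no mitochondrial gene was called higher.

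The enzyme classes had similar medians. The median log2FC was 0.79 over 8 class I cytosolic genes and 0.71 over 10 class II genes, GluProRS holding a domain of each class. Members of the multisynthetase complex, taken from animals in general as ArgRS, AspRS, GlnRS, GluProRS, IleRS, LysRS and MetRS beside LeuRS, had a median of 0.50 and ran from 0.24 to 0.80. The 12 cytosolic genes outside the complex had a median of 0.79 and ran from 0.56 to 1.14. All 5 genes that were at least 2-fold higher lay outside the complex, and the 4 smallest changes, those of LysRS, ArgRS, GluProRS and GlnRS, were all of complex members. These medians describe the genes and were not compared by a test.

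The 3 scaffold genes of the complex were called higher in HSD as well. AIMP2 had 127, 111, 112 and 83.3 CPM in HSD and 51.9, 80.1, 65.5 and 65.3 CPM in CD, a log2FC of 0.72 (± 0.15 SE, edgeR adjusted p = 0.00209). AIMP3 stood at 33.2 ± 1.29 CPM in HSD and 23.6 ± 5.03 CPM in CD, and AIMP1 at 61.0 ± 3.86 CPM in HSD and 51.7 ± 3.35 CPM in CD (SD, n = 4 each). Their log2FC values were 0.49 (edgeR adjusted p = 0.0239) and 0.24 (edgeR adjusted p = 0.0425). In all 3 scaffold genes every HSD library lay above every CD library, as in 24.9% of all genes tested. The call for AIMP2 held in every alternative. That for AIMP3 was lost at a threshold of 0.01, with total counts alone, with scaling to ribosomal protein genes and without HSD replicate 1, 2 or 3. That for AIMP1 was lost at a threshold of 0.01, with DESeq2, under 4 other scalings, under both other filters and without CD replicate 2 or 4 or HSD replicate 1 or 3, and its log2FC ran from -0.11 to 0.30 over the alternatives.

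Mitochondrial members were mixed, with 10 positive and 4 negative log2FC values. TyrRS-m (FBgn0035064; 2R, 24781726 to 24783500), which charges tyrosine in the mitochondrion, had 19.5, 22.96, 22.04 and 22.7 CPM in HSD and 8.73, 11.9, 15.8 and 13.8 CPM in CD. It changed most of the mitochondrial group, by 0.79 on the log2 scale (± 0.19 SE, edgeR adjusted p = 0.00544), with no overlap between diets. AlaRS-m, for alanine, had 35.9, 39.5, 31.4 and 46.2 CPM in HSD and 20.9, 27.6, 25.5 and 30.5 CPM in CD (0.55, ± 0.15 SE, adjusted p = 0.0115). LeuRS-m, for leucine, had 39.9, 39.9, 38.9 and 33.4 CPM in HSD and 31.6, 25.2, 29.3 and 30.5 CPM in CD (0.38, ± 0.11 SE, adjusted p = 0.0155). For AlaRS-m and LeuRS-m the lowest HSD library was only slightly above the highest CD library, and none of these 3 genes kept its call when libraries were scaled to ribosomal protein genes. LeuRS-m was also not called with total counts alone (0.25, adjusted p = 0.0853).

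The other 11 mitochondrial genes did not pass the test. MetRS-m had the largest value among them, 0.50 (± 0.26 SE, edgeR adjusted p = 0.133), with 16.3, 14.3, 19.99 and 14.8 CPM in HSD and 6.59, 12.4, 16 and 11.3 CPM in CD. Without CD replicate 3, the highest CD library for this gene, the estimate was 0.71 (edgeR adjusted p = 0.0497), and without CD replicate 1, the lowest, it was 0.33 (adjusted p = 0.191). SerRS-m, GluRS-m, CysRS-m, IleRS-m, ArgRS-m and AsnRS-m had values of 0.30, 0.22, 0.14, 0.07, 0.05 and 0.01, and AspRS-m, ValRS-m, TrpRS-m and ProRS-m had values of -0.08, -0.25, -0.30 and -0.38. When libraries were scaled to ribosomal protein genes, AspRS-m, ValRS-m, TrpRS-m and ProRS-m were called lower in HSD.

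Mitochondrial genes had lower counts and larger errors. The median SE of a log2FC was 0.16 for mitochondrial and 0.09 for cytosolic genes, and it reached 0.35 for GluRS-m, whose libraries held between 73 and 168 counts. Mitochondrial genes had at least 73 counts in a library and cytosolic genes at least 683. AspRS-m had 1727 to 3429 counts in a library and an SE of 0.09 and was not called, and TyrRS-m had 106 to 428 counts and was called higher. MetRS-m, with 80 to 360 counts, was not called at a log2FC of 0.50 (± 0.26 SE), while LeuRS-m was called at 0.38 (± 0.11 SE). The part of low counts in the number of mitochondrial calls was not tested.

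Levels were compared between genes per kilobase of merged exon. Cytosolic members ran from 45.5 to 195 CPM per kilobase in HSD with a median of 70.03, and from 25.8 to 107 CPM per kilobase in CD with a median of 51.1. Mitochondrial members ran from 3.79 to 36.7 CPM per kilobase in HSD with a median of 9.15, and from 2.68 to 38.7 CPM per kilobase in CD with a median of 8.33. The groups did not overlap in HSD, and in CD they overlapped only through AspRS-m (FBgn0051739; 2L, 16827078 to 16832093), the aspartate enzyme of the mitochondrion, which was far above every other mitochondrial member. AspRS-m had 156, 171, 166 and 156 CPM in HSD and 142, 178, 182 and 182 CPM in CD, and per kilobase it stood between beta-PheRS and HisRS in CD but below every cytosolic member in HSD.

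The order of levels within the cytosolic group also differed between diets. ThrRS (195 ± 31.3 CPM per kilobase), SerRS (176 ± 16.01) and AspRS (170 ± 13.4) led in HSD and overlapped within their SDs. AspRS (107 ± 3.07 CPM per kilobase), ThrRS (97.4 ± 8.60) and LysRS (92.3 ± 4.197) led in CD, where neighbours in that order overlapped within their SDs (n = 4 each). LysRS was in place 8 of the 33 genes in HSD and in place 3 in CD. ValRS, with the largest fold change, was, with CysRS, the lowest cytosolic gene in CD at 25.8 ± 2.15 CPM per kilobase and stood level with HisRS, MetRS and TrpRS in HSD at 56.9 ± 9.20 CPM per kilobase.

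For 11 amino acids the cytosolic and the mitochondrial enzyme each have their own gene among the rows, and the ratio of the 2 transcripts within a library does not depend on how that library is scaled. The log2 ratio of cytosolic to mitochondrial transcript had a positive difference, HSD minus CD, for all 11. The difference passed for 7 of them, Val, Trp, Asn, Ile, Asp, Ser and Cys, each with no overlap between diets (exact permutation test over 70 assignments, two-sided, p = 0.0286, the smallest that this design allows, adjusted p = 0.0449 over 11 amino acids). The sizes were 1.36, 1.06, 1.05, 0.74, 0.73, 0.72 and 0.65 in that order. In this test no overlap and the smallest p are the same result. The adjusted p depends on how many of the amino acids reached it. Of the 9257 single genes tested, 4679 had no overlap between diets in CPM, in either direction. With any single library left out the lowest adjusted p was 0.0524, in a test with few assignments left, so nothing on stability was read from it. Over the alternatives the differences were 1.28 to 1.54 for Val, 0.97 to 1.14 for Trp, 0.85 to 1.24 for Asn and 0.59 to 0.87 for Ile. They were 0.68 to 0.82 for Asp, 0.63 to 0.80 for Ser and 0.56 to 0.76 for Cys. AspRS, SerRS-m and CysRS-m share exon bases with other annotated genes, as given below, so the differences for Asp, Ser and Cys are less certain. As the diets did not overlap in these 7, leaving out a library could not change the sign.

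The pair for valine differed most. ValRS-m, the mitochondrial enzyme, had 12.7, 14.9, 12.9 and 15.6 CPM in HSD and 17.4, 18.9, 12.1 and 18.3 CPM in CD, so its diets overlapped while those of ValRS did not. Per kilobase, ValRS was 13.2 times the level of ValRS-m in HSD and 5.04 times in CD. TrpRS-m had 20.9, 20.3, 18.9 and 19.8 CPM in HSD and 24.4, 24.5, 29.1 and 20.2 CPM in CD, and TrpRS was 7.09 times its level per kilobase in HSD and 3.37 times in CD. AsnRS-m had 14.9, 11.4, 15.7 and 13.5 CPM in HSD and 17.6, 12.3, 9.27 and 16.1 CPM in CD. AsnRS was 14.4 times its level per kilobase in HSD and 6.66 times in CD. IleRS-m, the fourth of these, had 26.8, 28.0, 30.0 and 18.8 CPM in HSD and 21.0, 23.2, 27.8 and 26.8 CPM in CD, and the ratio per kilobase was 9.84 in HSD and 5.93 in CD.

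For Arg, Ala, Met and Tyr the ratio did not differ beyond the spread between libraries. The differences were 0.24, 0.22, 0.23 and 0.23 on the log2 scale, with exact permutation p-values of 0.114, 0.171, 0.457 and 0.314 and adjusted p-values of 0.157, 0.21, 0.457 and 0.346. These 4 were of different kinds. Both genes of the Ala and Tyr pairs were called higher in HSD, MetRS was called higher beside an imprecise MetRS-m, and ArgRS itself changed little.

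**Figure D3:**
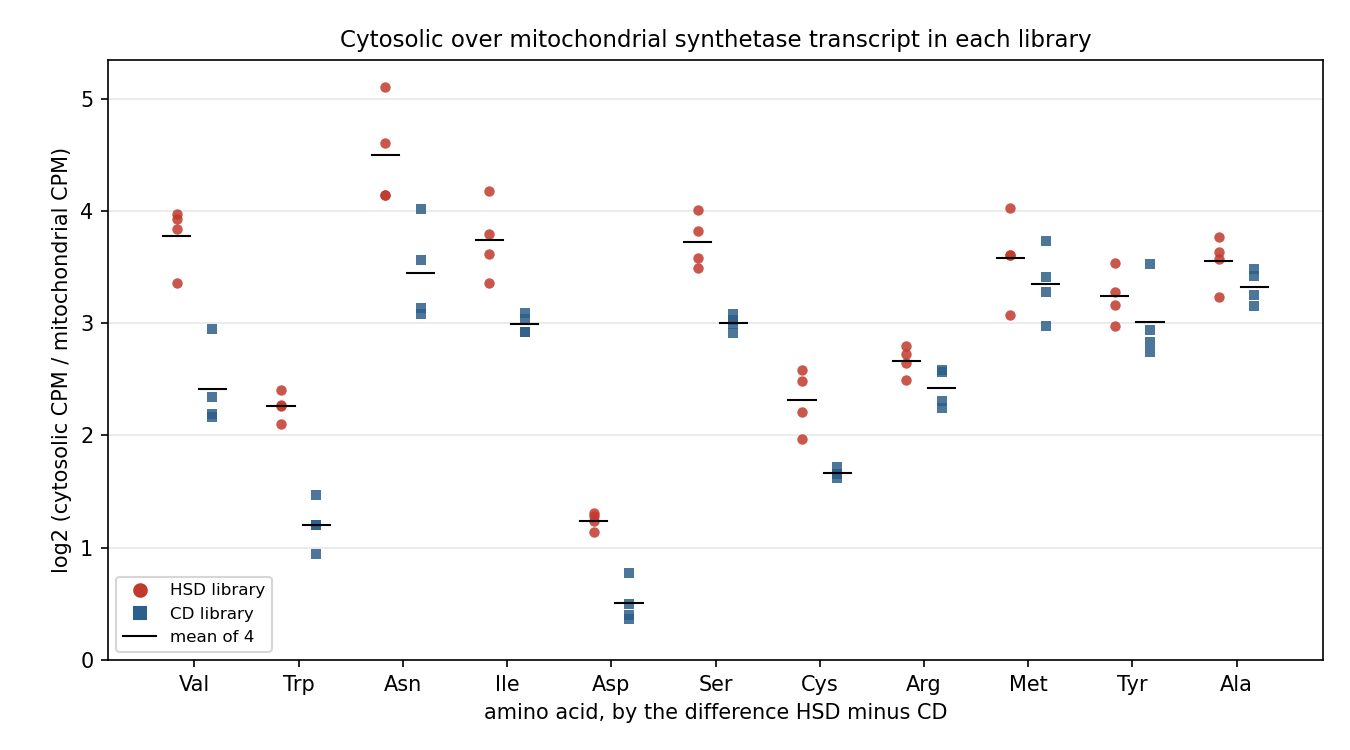
Log2 ratio of cytosolic to mitochondrial synthetase transcript in each library for 11 amino acids, ordered by the difference HSD minus CD, with HSD libraries as circles left of CD libraries as squares and the mean of 4 as a bar. From Val to Cys the 4 HSD points lie above the 4 CD points, and for Arg, Met, Tyr and Ala the diets overlap.

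Cytosolic members shared an order among the HSD libraries. HSD replicate 2 held the highest HSD value of 16 of the 19 genes (84.2%), compared with 29.2% of all genes tested, and HSD replicate 4 the lowest value of 11 (57.9%), compared with 36.1% of all genes. HSD replicate 3 was lowest for another 7. The mitochondrial members showed no such order among the HSD libraries, each HSD library being the lowest for between 2 and 4 of the 14 genes. Among the CD libraries, replicate 3 held the highest value of 8 of the 14 mitochondrial genes (57.1%) and 8 of the 19 cytosolic genes (42.1%). For all genes tested that share was 23.8%. With both HSD replicate 4 and CD replicate 1 left out, a choice made after seeing the data, all 19 cytosolic and 3 mitochondrial genes were called higher in HSD, with medians of 0.73 and 0.16.

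TyrRS and GluRS-m are neighbours on the same strand of 3L, 171 bp apart in the BDGP6 annotation (16417349 to 16419302 and 16415292 to 16417177). TyrRS had a log2FC of 1.05 and GluRS-m one of 0.22 (± 0.35 SE, edgeR adjusted p = 0.637). Exon bases were shared with another annotated gene by 16 of the 33 members, over more than 100 bp for 6. SerRS-m shares 356 bp with Nagk on the other strand, and Nagk fell by 2.69 on the log2 scale, with 7.38 ± 0.996 CPM in HSD and 47.8 ± 10.5 CPM in CD (SD, n = 4 each). AspRS shares 1448 bp and GluProRS 905 bp with antisense RNA genes, and HisRS 255 bp with Bx. Those neighbours are from the BDGP6 annotation and were not among the rows under their identifiers there. Neighbours among the rows are mRpS9, which shares 325 bp with ArgRS-m, and CG13016, which shares 302 bp with CysRS-m. AspRS also shares 154 bp with asRNA:CR43468 and 127 bp with Nmda1, which were among the rows. Neither the strand setting of the counting nor its handling of reads shared between genes was given in the sources used here, so the counts of these 6 genes are less certain.

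Genes with related roles are given by their counts, beside the 25.9% of all genes tested that were higher in HSD and the 26.2% that were lower. Of 15 genes tested for tRNA maturation and modification, 8 were higher in HSD and 1 was lower, with a median log2FC of 0.42. Higher were the guanine transglycosylase Tgt (0.91) and the tRNA methyltransferase Nsun2 (0.89). Another methyltransferase, Mt2, had a value of 1.00 (edgeR adjusted p = 0.0361), and its call was lost at a threshold of 0.01, with total counts alone, with scaling to ribosomal protein genes, with every gene with a count, and without CD replicate 2 or any one HSD replicate (adjusted p up to 0.138). The lower gene was hebe (-1.26), for which no role is given here. Of 15 genes listed as other enzymes that charge, convert, edit or proofread aminoacyl-tRNA, 7 were tested. They moved little, with 1 higher and 1 lower. The higher gene was TTLL12 (0.33), for which no such role is given here. The lower one was SecS (-0.42), which makes selenocysteine on its tRNA in other animals. TTLL12 was not called at a threshold of 0.01 or with total counts alone, and was -0.01 with scaling to ribosomal protein genes.

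The cytosolic elongation factors were split by gene. Of 6 cytosolic factors tested, 4 were higher, among them eEF1delta (0.61), eEF1beta (0.47) and eEF2 (0.47), the translocase. The lower one, eEF1alpha2, a form of the factor that brings charged tRNA to the ribosome, fell by 4.59 on the log2 scale, with 29.6 ± 13.4 CPM in HSD and 712 ± 110 CPM in CD (SD, n = 4 each). The other listed form of that factor, eEF1alpha1, was not analysed here, so its level is not known. Scaling to ribosomal protein genes ended the calls for eEF1beta and eEF2 and kept those for eEF1delta and eEF1alpha2. Of 9 mitochondrial translation factors, 3 (33.3%) were higher, against 25.9% of all genes, and none was lower. They were mEFTu1 (0.55), mEFTu2 (0.50) and mEFTs (0.32), none of which was called with scaling to ribosomal protein genes, where mEFTs was -0.02, and mEFTs was also not called with total counts alone. Cytosolic ribosomal protein genes were higher for 73 of 82 tested with a median of 0.33, and mitochondrial ribosomal protein genes for 31 of 70 with a median of 0.38, none being lower in either group, against 25.9% of all genes higher.

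Synthetase genes are known in mammals as targets of ATF4, the transcription factor that is translated when amino acids run short or the endoplasmic reticulum is stressed, and whose fly counterpart is crc. The transcript of crc had 1822, 1859, 1801 and 1651 CPM in HSD and 1244, 1311, 1217 and 1206 CPM in CD, a log2FC of 0.52 (± 0.06 SE, edgeR adjusted p = 2.03e-05) without overlap. Of the 13 genes tested on the list of the amino acid stress response, 9 were higher and 2 lower, with a median of 0.55, against 25.9% and 26.2% of all genes. The largest were Nmdmc (1.85) and Shmt (0.76), enzymes of one-carbon metabolism, PEK (0.81), the kinase that answers endoplasmic reticulum stress, and Sesn (-0.84), a Sestrin that restrains TOR. The higher genes also included eIF2alpha, eIF2beta and eIF2gamma, so the count is not one of ATF4 targets alone. AsnS, Psat, Phgdh and Trib3 were listed but not analysed here. With scaling to ribosomal protein genes eIF2alpha, Thor and trbl were no longer called. Gcn2, the kinase that senses uncharged tRNA, was level, with 80.7 ± 10.7 CPM in HSD and 79.7 ± 9.10 CPM in CD (log2FC 0.02, ± 0.12 SE, adjusted p = 0.914).

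On the list of TOR and Myc growth control, 2 of 12 genes tested were higher and 1 lower (25.0% called in either direction, against 52.1% of all genes), with a median of 0.03. Tor, S6k, S6KL and maf1 were listed but not analysed here, so the median does not cover them. Myc, which drives ribosome production and cell growth, had 344, 421, 412 and 454 CPM in HSD and 302, 318, 319 and 325 CPM in CD, a log2FC of 0.37 (± 0.08 SE, edgeR adjusted p = 0.00306), with every HSD library above every CD library. Its antagonist Mnt had a log2FC of -0.72 and srl, a regulator of mitochondrial genes, one of 0.39. With scaling to ribosomal protein genes Myc (0.03, edgeR adjusted p = 0.845) and srl (0.05, adjusted p = 0.723) were no longer called, while Mnt was.

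**Figure D4:**
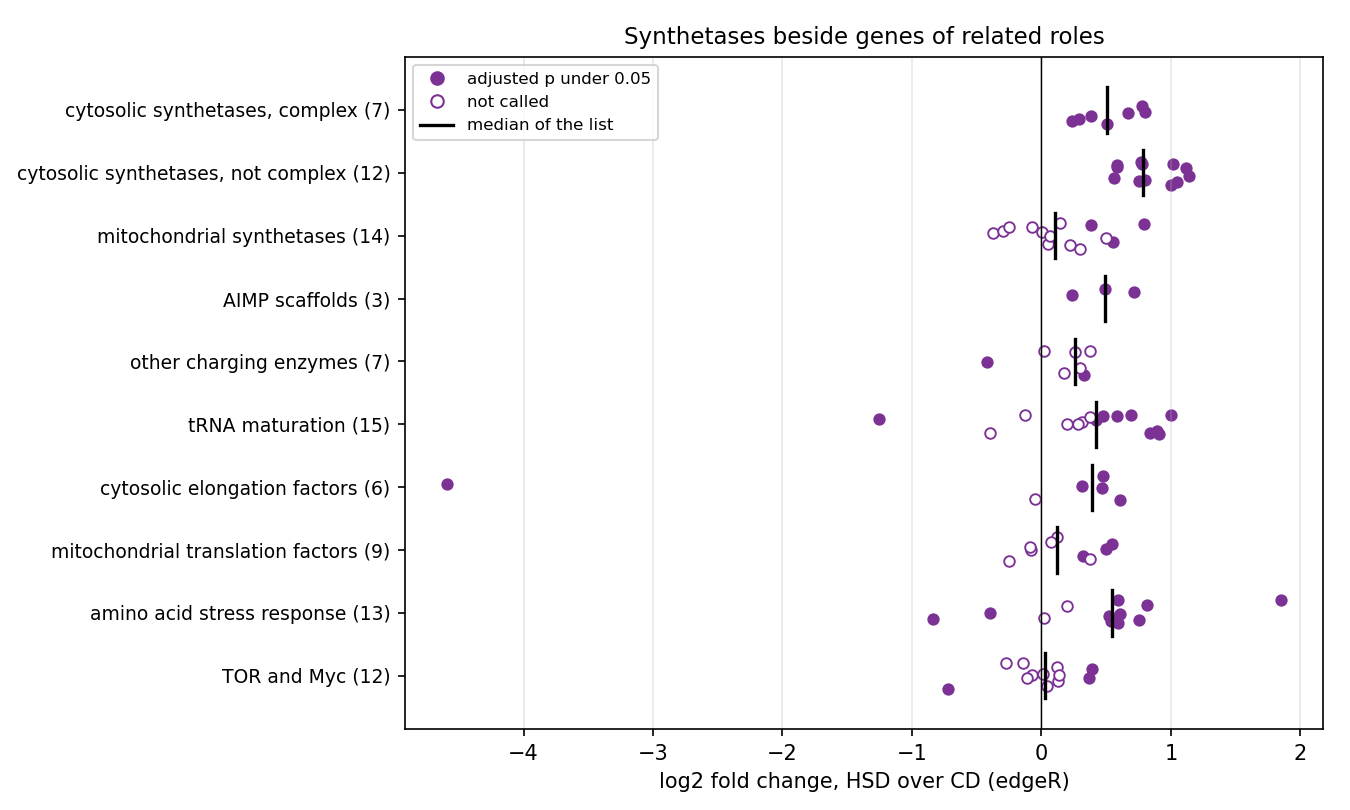
Log2FC, HSD over CD, of the synthetase genes and of genes on 7 lists of related roles, with filled points for an adjusted p under 0.05, open points for genes not called and a bar at each median (number of genes tested in brackets). The cytosolic synthetases are all positive here and their medians lie to the right of the mitochondrial one, while single genes of the groups overlap. Scaling to ribosomal protein genes turned ArgRS and LysRS negative.

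Markers of other cells differed between the diets as well. Beside the counts below, 25.9% of all genes tested were higher in HSD and 26.2% were lower. All 5 neuronal markers were lower in HSD, with a summed level of 88.2 to 148 CPM in HSD and 1600 to 1990 CPM in CD, and so were all 4 neuroblast markers, with 30.7 to 42.6 CPM in HSD and 207 to 232 CPM in CD. None of these 9 markers was at 0 in any library. The neuronal gene elav, an RNA-binding protein, stood at 77.2 ± 10.9 CPM in HSD and 552 ± 75.1 CPM in CD (SD, n = 4 each). All 3 tracheal markers analysed were higher, with 1400 to 2110 CPM in HSD and 922 to 1030 CPM in CD, 3 of 4 muscle markers were lower, with 59.6 to 98.4 CPM in HSD and 136 to 197 CPM in CD, and no fat body marker passed the test, with 739 to 3020 CPM in HSD and 1250 to 1930 CPM in CD. Of 4 glial markers 3 were lower and 1 higher (161 to 245 CPM in HSD, 203 to 279 CPM in CD). That sum mixed opposite changes, moody having a log2FC of 1.38 and repo, gcm and Gs2 values of -2.06, -4.20 and -3.99. Of 5 haemocyte markers 2 were lower (165 to 269 CPM in HSD, 198 to 224 CPM in CD), 1 of the 5 being at 0 in some library. Both prothoracic gland markers analysed were lower (8.96 to 53.9 CPM in HSD, 136 to 186 CPM in CD). In tissue profiled in bulk, fewer cells of a type and less RNA per cell cannot be told apart, and the part of these cells in the synthetase levels was not tested.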

How the data were processed

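Per the labels and the study's methods, the authors prepared libraries from pooled tissue with a stranded mRNA kit, trimmed paired reads with Trim Galore 0.4.4, aligned them to dm3 (TopHat2 2.0.11) and made gene counts with featureCounts. What they deposited are raw, unscaled counts under FlyBase identifiers, of which 15002 of 15682 matched a current symbol. How strand and multiply aligned reads were handled is not given in the sources used here. BDGP6, another build than that of the alignment, gave exon lengths and positions, without conversion.

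Counts of the 8 libraries were fitted on diet with edgeR 4.0.16 in R 4.3.3 (filterByExpr, TMM scaling, quasi-likelihood test, two-sided, Benjamini-Hochberg over 9257 genes, threshold 0.05). CPM are counts per 1000000 of TMM-scaled library size. An SE was computed as the absolute log2FC over the square root of F. For ratios within a library, 2 was the prior count of log2 CPM. The procedure was tested on simulated data. The study describes the libraries of each diet as independent biological samples, each made from pooled tissue, and how many animals a pool held was not given in the sources used here.

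The members and the gene lists were chosen with earlier results of these data known. Values in each library were given for the 8 genes with the largest absolute log2FC among those past the threshold in each location group, both genes of the 4 pairs with the largest ratio differences and the highest gene per exon length in each group. From other lists at most 4 called genes with the largest change were named, plus AIMP1 to AIMP3, crc and Myc. ArgRS, LysRS, MetRS-m, both PheRS subunits, Gcn2, Nagk, elav and the eye disc, glial, muscle, glue and fat body markers were given values after these had been seen. Alternatives were scaling by total counts alone, by upper quartile, by DESeq2 size factors or to cytosolic ribosomal protein genes, DESeq2 1.42.0 or limma-voom (limma 3.58.1) as the test, every gene with a count, a minimum of 10 counts in every library, an adjusted p under 0.01, replicate number as a block, prior counts of 0.5 and 5, and each library left out in turn. Leaving out both CD replicate 1 and HSD replicate 4 was added after seeing the data.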

Additional observations from a re-analysis of the deposited data

Results flagged for a closer look

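Single libraries lay far from the other 3 of their diet in 5 of 66 groups of 4 libraries (33 genes in each diet), where about 3.3 would be passed by chance. The measure is the gap to the nearest other library divided by the range of the group. It was read against Dixon's critical value for 4 libraries. HSD replicate 4 was the low library in 3 of them. SerRS stood at 290 CPM there and at 345 to 355 CPM in the other HSD libraries (0.863), LeuRS-m at 33.4 CPM and at 38.9 to 39.9 CPM (0.856), and GluRS-m at 5.26 CPM and at 8.27 to 9.01 CPM (0.841). CD replicate 1 was the low library in the other 2. AspRS-m stood at 142 CPM there and at 178 to 182 CPM in the other CD libraries (0.9), and MetRS at 89.1 CPM and at 121 to 126 CPM (0.874). Of these 5 genes, SerRS, LeuRS-m and MetRS were called higher in HSD with every library left out in turn.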

How the results depend on the processing

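The count of cytosolic genes higher in HSD (19) was 13 to 19 over the alternatives, and none was called lower in any. Scaling mattered most. Over all genes the median log2FC was -0.13 with total counts alone and -0.34 with scaling to ribosomal protein genes, and 38.1% and 21.3% of all calls were then higher, against 49.8% under TMM. Total counts alone gave medians of 0.63 (cytosolic) and -0.0306 (mitochondrial) and 1 mitochondrial gene lower, TrpRS-m. Scaling to ribosomal protein genes gave 0.43 and -0.24, with 0 mitochondrial genes higher and 4 lower. The upper quartile gave a mitochondrial median of 0.0416, and an adjusted p under 0.01 left 1 mitochondrial gene higher. Without single libraries, 18 to 19 cytosolic and 3 to 4 mitochondrial genes were higher, with medians of 0.70 to 0.80 and 0.0864 to 0.18. The 7 amino acids whose ratio differed became 0 without any single library, where few assignments remain, with differences of 0.56 to 1.54.

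Signs changed for these genes, most of them not called. With scaling to ribosomal protein genes, ArgRS was -0.0538, LysRS -0.11, ArgRS-m -0.29, AsnRS-m -0.36, CysRS-m -0.20, GluRS-m -0.13, IleRS-m -0.28 and SerRS-m -0.0449. With total counts alone, ArgRS-m was -0.0821, AsnRS-m -0.13 and IleRS-m -0.069. With the upper quartile, ArgRS-m was -0.0101 and AsnRS-m -0.0513. AsnRS-m was -0.0165 with DESeq2 size factors, -0.0161 with DESeq2, -0.0211 with at least 10 counts in every library and -0.0075 with every gene with a count. Leaving out single libraries gave -0.12 to 0.17 for AsnRS-m and -0.0051 to 0.20 for IleRS-m.

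Libraries of the 2 diets that share a replicate number did not deviate together (correlations from -0.15 to 0.07). With replicate number as a block, 18 cytosolic and 3 mitochondrial genes were higher, with medians of 0.77 and 0.10, and ArgRS (0.29) had an adjusted p of 0.0646 by edgeR. As pairs, the exact sign permutation of the ratios cannot give a p below 0.125. The causes of these changes were not tested. The median SE of a log2FC was 0.16 for mitochondrial and 0.09 for cytosolic genes.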
